A study of Mus musculus with 2 samples.

Results

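Compact strong H3K27me3 islands were intervals of trimethylated lysine 27 of histone H3 on chromosomes 1 to 19 that were 20 kb wide or less and had a summit height, the score the authors deposited for the top of each island, of 40 or more. Of 10421 autosomal H3K27me3 islands, 897 met both limits, or 8.61%. They were compared with 435 broad strong islands, which had the same height limit and were over 20 kb wide, and with 8876 compact weak islands, which were as narrow but lower than 40. The islands were chosen by their measured width and height, so these values are descriptions only. The cells came from incisor pulp of CD1 mice aged 5 days, all of which had received 1 dose of EdU, a label for newly made DNA, at 3.3 µg for each g of body weight 24 h earlier. EdU+ cells were fixed, stained, flow sorted and used for chromatin immunoprecipitation, with 1 library for H3K27me3, 1 for H3K4me3 and no input used in calling. The EdU+ sort takes any pulp cell that replicated its DNA, and how many animals were behind each library is not stated in its labels.

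H3K27me3 is laid down by Polycomb repressive complex 2 and marks genes held silent in a cell lineage. H3K4me3 is found at the starts of active genes and at most starts rich in CpG dinucleotides, and both marks at 1 start are called bivalent, a state known from embryonic stem cells and from developmental genes in many tissues. Long H3K27me3 domains are known from Hox clusters and other genes of transcription factors that set body plan. The continuously growing mouse incisor is renewed by pulp stem cells and their transit-amplifying progeny. Where islands of both marks overlapped in a sorted population, both marks on the same chromosome copy and each mark in different cells cannot be told apart.

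As a check on the tissue label, 3 of 5 markers of dental mesenchyme and odontoblasts had an H3K4me3 island at a gene end, namely Msx1, Pax9 and Lhx6, beside 56.6% of all autosomal protein-coding genes. These 3 also had an end in an H3K27me3 island, broad and weak at Msx1 and Pax9 and broad and strong at Lhx6, beside 19.7% of all genes. The odontoblast genes Dspp and Dmp1 had neither mark. Markers of other cells also carried H3K4me3, with 3 of 4 for dental epithelium, 1 of 4 for endothelium, 2 of 3 for blood, 0 of 2 for glia and nerve and 1 of 3 for pericytes. Among all these markers, 4 had an end in a compact strong island: the epithelial adhesion genes Epcam and Cdh1, the endothelial receptor gene Kdr and the glial factor gene Sox10. What other cell types in the sort add to the islands below was not tested.

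Member islands were 12.2 kb wide at the median (interquartile range 9.80 to 15.2) and a median height of 52 (46 to 61, highest 111). Broad strong islands had medians of 29.8 kb and a height of 71, so the broad set was also taller. There were 43 members exactly at the height of 40, among them islands at Atp1b1 and Boll, and 48 compact islands sat 1 below it at 39, such as those at Pld5 and Cnih3. From 19 to 20 kb there were 33 members, including Hes5 and Lmo2 at 19.999 kb, and 36 strong islands lay just over the limit, the narrowest at Mn1, Myorg, Nxph1, Podxl and Ttbk1 with 20.2 kb each. Members were found on every autosome, from 20 on chromosome 16 to 90 on chromosome 7, and made up 6.39% to 12.1% of a chromosome's H3K27me3 islands.

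**Figure D1:**
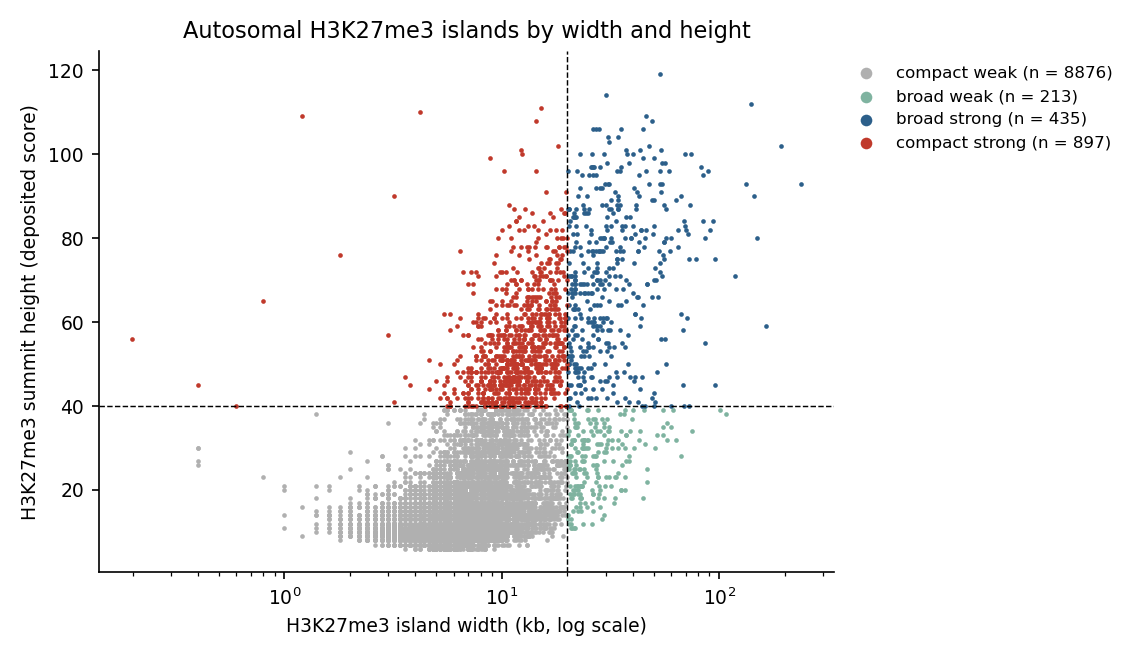
Each point is 1 of the 10421 autosomal H3K27me3 islands, placed by its width in kb (horizontal, log scale) and its summit height (vertical, the score the authors deposited). Dashed lines mark 20 kb and a height of 40, and the 897 compact strong islands fill the upper left, with a median width of 12.2 kb, and 15 members of 5 kb or less lie to the left of the rest.

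The letters of 6 gene starts beside summits show what such places look like. The first 3 are the starts nearest the summits of the 3 tallest members that had H3K4me3 and a summit within 1 kb of a start (genes known only by a provisional name left out), and the other 3 were chosen in the same way among members without H3K4me3. Each sequence is 300 bases from RefSeq on GRCm38.p6, 5′ to 3′ on the strand of the gene, from 250 bases before the start to 50 after it, with every CG in capitals. Rfx4 encodes a winged-helix factor of the developing brain, Gsc2 a homeodomain factor related to goosecoid, and Cabp7 a calcium-binding protein. Ucn encodes the stress peptide urocortin, Npas1 a basic helix-loop-helix factor of neurons, and Robo3 a receptor for axon guidance.
Rfx4 (chr10:84755798-84756097, plus strand): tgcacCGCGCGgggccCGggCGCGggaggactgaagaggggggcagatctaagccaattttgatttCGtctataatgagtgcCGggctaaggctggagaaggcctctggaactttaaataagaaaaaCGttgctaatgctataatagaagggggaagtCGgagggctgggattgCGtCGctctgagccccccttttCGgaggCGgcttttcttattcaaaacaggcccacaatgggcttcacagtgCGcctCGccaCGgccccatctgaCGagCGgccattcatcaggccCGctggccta
Gsc2 (chr16:17914978-17915277, minus strand): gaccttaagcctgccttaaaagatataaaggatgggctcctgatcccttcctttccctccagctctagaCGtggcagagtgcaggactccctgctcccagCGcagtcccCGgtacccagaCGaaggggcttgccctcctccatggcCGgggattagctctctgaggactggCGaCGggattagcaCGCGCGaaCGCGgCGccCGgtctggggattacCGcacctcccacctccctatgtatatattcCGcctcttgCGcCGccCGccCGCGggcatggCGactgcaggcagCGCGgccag
Cabp7 (chr11:4747130-4747429, minus strand): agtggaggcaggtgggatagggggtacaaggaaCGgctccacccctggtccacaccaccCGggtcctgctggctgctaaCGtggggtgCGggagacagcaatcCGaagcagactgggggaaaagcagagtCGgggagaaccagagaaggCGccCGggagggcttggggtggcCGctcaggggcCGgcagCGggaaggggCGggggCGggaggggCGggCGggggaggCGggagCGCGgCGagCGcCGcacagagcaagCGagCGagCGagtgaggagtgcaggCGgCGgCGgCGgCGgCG
Ucn (chr5:31138846-31139145, minus strand): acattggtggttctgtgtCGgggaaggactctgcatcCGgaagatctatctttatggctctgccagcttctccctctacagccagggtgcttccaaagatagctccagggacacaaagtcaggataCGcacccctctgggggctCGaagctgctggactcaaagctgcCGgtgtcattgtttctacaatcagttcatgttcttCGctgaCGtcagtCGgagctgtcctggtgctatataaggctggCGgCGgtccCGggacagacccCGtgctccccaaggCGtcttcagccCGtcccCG
Npas1 (chr7:16476731-16477030, minus strand): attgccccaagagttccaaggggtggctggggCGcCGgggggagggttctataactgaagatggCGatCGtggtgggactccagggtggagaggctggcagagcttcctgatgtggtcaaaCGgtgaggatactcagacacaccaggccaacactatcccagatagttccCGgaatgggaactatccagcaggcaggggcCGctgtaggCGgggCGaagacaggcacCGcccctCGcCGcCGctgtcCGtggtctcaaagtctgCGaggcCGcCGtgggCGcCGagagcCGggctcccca
Robo3 (chr9:37433126-37433425, minus strand): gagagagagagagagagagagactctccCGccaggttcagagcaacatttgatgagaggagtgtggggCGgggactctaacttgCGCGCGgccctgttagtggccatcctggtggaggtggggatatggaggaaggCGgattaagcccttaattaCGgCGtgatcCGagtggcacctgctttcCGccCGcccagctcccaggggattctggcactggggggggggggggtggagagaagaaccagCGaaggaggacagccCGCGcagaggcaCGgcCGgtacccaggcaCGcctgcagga

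Rfx4 had 20 CG in these 300 bases, Gsc2 24 and Cabp7 30. Without H3K4me3, Ucn had 15, Npas1 20 and Robo3 17. The summit of H3K27me3 lay 753 bp into the gene at Rfx4, 594 bp at Gsc2, 334 bp at Ucn, 555 bp at Npas1 and 598 bp at Robo3, and 438 bp before the start at Cabp7. These distances to a start were part of how the 6 were picked.

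Across members, summits were less close to starts than in these examples. A start in the RefSeq promoter table, which holds 79.6% of autosomal protein-coding genes and none on chromosome 18, lay within 5 kb of the summit for 568 of the 873 members on the other chromosomes (65.1%) and within 1 kb for 353 (40.4%). At these starts the median was 22 CpG in 300 bases (14 to 30), equal to the 22 at the starts nearest broad strong islands and above the 17 at compact weak islands. Across all 20085 starts in the table the median was 14. Starts under H3K4me3 alone had a median of 22 and starts under neither mark had 3. At least 10 CpG were present at 84.7% of the members' starts (481 of 568, 95% interval 81.5 to 87.5, exact binomial), at 86.9% for broad strong islands and at 57.9% of all starts. Intervals here count islands or genes of 1 library and do not measure variation between animals. The CG match reads the same on both strands and describes letters only.

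Summits sat just inside genes. Among the 568 members near a start, the H3K27me3 summit lay a median of 558.5 bp into the gene, with the middle 50% of members from 72.75 to 1147.5 bp. It was on the transcribed side in 76.6% (435 of 568, 72.9 to 80.01), against 70.1% (63.6 to 76.1) for broad strong and 59.3% (57.3 to 61.4) for compact weak islands. In broad strong islands the median offset was similar at 650 bp but the spread was wider, from -326 to 1559 bp. In the 485 of these members that overlapped H3K4me3, the summit of the highest H3K4me3 island lay closer to the start, at a median of 186 bp into the gene. The H3K27me3 summit of the same 485 lay at a median of 623 bp (89 to 1197). The distance between the summits of both marks was 800 bp at the median in compact strong islands, 1760 bp in broad strong and 896 bp in compact weak islands.

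**Figure D2:**
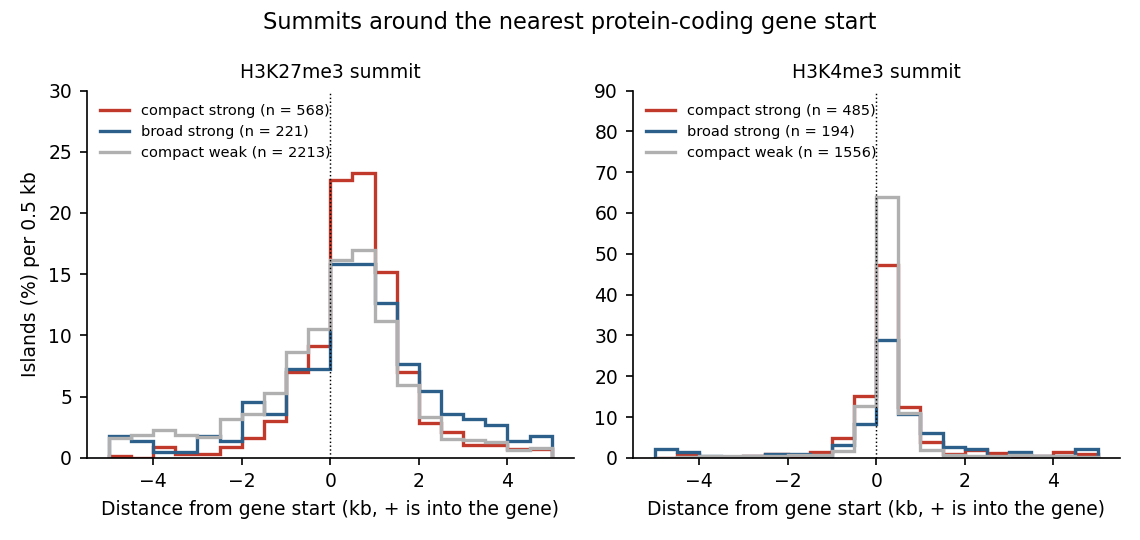
Position of H3K27me3 summits (left) and of the summits of overlapping H3K4me3 islands (right) relative to the nearest protein-coding start, in kb, as the percentage of islands in each step of 0.5 kb for the 3 sets, with different vertical scales. Among compact strong islands the fullest step for H3K27me3 runs from 500 to 1000 bp inside the gene and holds 23.2% of islands, and the fullest step for H3K4me3 runs from 0 to 500 bp and holds 47.2%.

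Distances to either annotated end of a gene, which do not need the start table, were also measured. A protein-coding gene end lay within 1 kb of the summit in 47.7% of members (428 of 897, 44.4 to 51.0), in 31.0% of broad strong islands (135 of 435, 26.7 to 35.6) and in 16.6% of compact weak islands, beside 19.8% of all autosomal H3K27me3 islands. By height, the shares were 49.6% of members (44.3 to 54.9) and 23.1% of broad islands (13.5 to 35.2) at 40 to 49, 48.2% (42.1 to 54.3) and 23.8% (14.0 to 36.2) at 50 to 59, 47.2% (40.4 to 54.1) and 37.9% (30.2 to 46.1) at 60 to 79, and 31.8% (18.6 to 47.6) and 30.5% (23.4 to 38.4) at 80 or more. The intervals were apart below 60 and overlapped from 60 on. Over all heights, the median distance from summit to gene end was 1055 bp in members (577 to 2553), 1787 bp in broad strong and 13677.5 bp in compact weak islands. Summits lay inside a protein-coding gene in 81.6% of members and 69.7% of broad strong islands, beside 52.8% of all islands. Islands with no gene end at all were about as common in both strong sets, at 15.8% (142) and 16.1% (70), and made up 71.7% of compact weak islands. Ends of 2 or more genes were held by 15.5% of members and 25.3% of the broad set. Summits over 10 kb from any gene end numbered 118 among members (13.2%), beside 50.3% of all islands. Of the 118, 65 lay inside a long protein-coding gene, beside 81.6% of all members and 52.8% of all islands with the summit inside a gene. H3K4me3 overlapped 73 of the 118, beside 82.1% of all members and 36.1% of all islands. Members were also more isolated: 25.8% had another H3K27me3 island within 5 kb, against 48.97% of broad strong islands and 33.7% of all islands, and 10 members (1.11%) had a broad strong island that close.

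H3K4me3 lay within most members. At least 1 bp of H3K4me3 island overlapped 82.1% of compact strong islands (736 of 897, 79.4 to 84.5) and 80.9% of broad strong islands (352 of 435, 76.9 to 84.5), so these shares did not differ beyond their intervals. Compact weak islands had 29.5% and all autosomal H3K27me3 islands 36.1%. Around the summit, over all heights, the intervals of the strong sets did not overlap. An H3K4me3 island came within 1 kb of the summit in 78.7% of members (706, 75.9 to 81.3) and in 63.7% of broad strong islands (277, 58.96 to 68.2), beside 32.4% of all islands. The summit base itself lay under H3K4me3 in 70.9% of members and 54.7% of broad strong islands.

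Height was then matched, since broad islands were taller. At heights of 40 to 49, H3K4me3 overlapped 79.9% of members (290 of 363, 75.4 to 83.9) and 56.9% of broad strong islands (37 of 65, 44.0 to 69.2). At heights of 50 to 59 the shares were 79.2% (217 of 274) and 76.2% (48 of 63), at 60 to 79 they were 87.5% (189 of 216) and 85.0% (130 of 153), and at 80 or more they were 90.9% (40 of 44) and 89.0% (137 of 154). Only in the lowest of these ranges did the intervals of the sets not overlap. In that range 44.6% of broad islands held no gene end, against 19.3% of members, whereas at 80 or more the broad islands without one were 1.95% and the members 13.6%. For H3K4me3 within 1 kb of the summit, the intervals were apart at 40 to 49 and at 60 to 79. They overlapped at 50 to 59 (members 70.4 to 80.9, broad 45.6 to 71.0) and at 80 or more (members 72.6 to 94.8, broad 60.9 to 76.0).

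**Figure D3:**
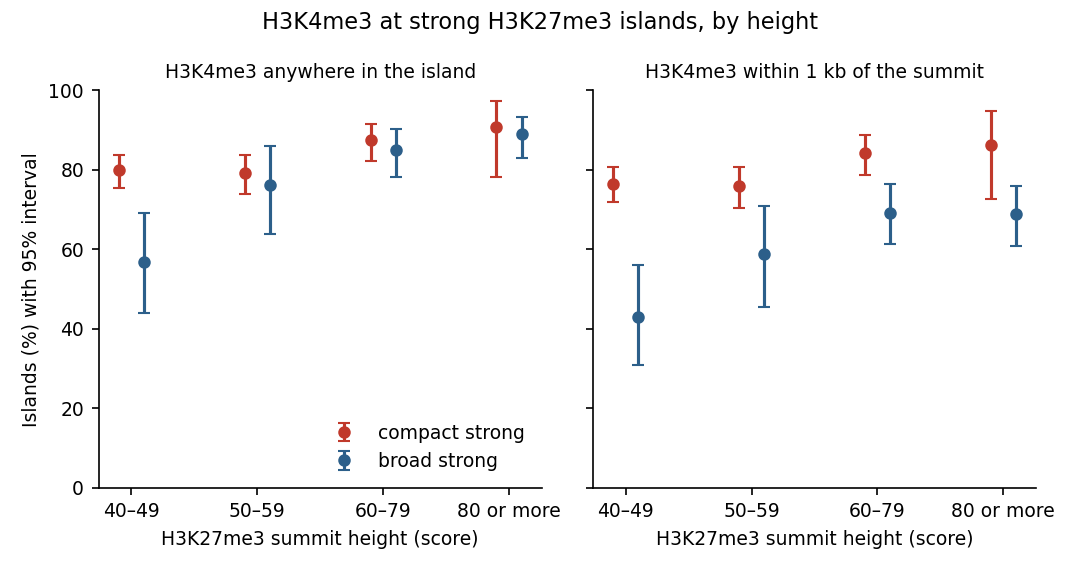
Percentage of strong H3K27me3 islands with H3K4me3 anywhere in the island (left) or within 1 kb of the summit (right), by summit height, with exact binomial 95% intervals. Compact islands start at 79.9% and broad islands at 56.9% in the lowest range on the left, and the sets come together at greater heights, while on the right the broad set stays below the compact set in each range.

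Most H3K4me3 islands in members were lower than usual for that mark. The highest H3K4me3 island of an overlapping member had a median height of 39 (21 to 67), against 36.5 in broad strong islands, 64 in compact weak islands and 93 among all 13892 autosomal H3K4me3 islands, of which 25.9% were lower than 39. An H3K4me3 island above the median height of all of them was found in 97 members. These islands were a median of 2.80 kb wide and covered 23.5% of the member's width (15.8 to 35.3), and 13.0% in the broad set. In 85.5% of overlapping members (629 of 736) every H3K4me3 island lay wholly inside the H3K27me3 island. This share was 91.5% for overlapping broad strong islands and 66.7% for all overlapping H3K27me3 islands. At least 2 H3K4me3 islands were held by 6.80% of members (61) and by 30.6% of broad strong islands (133). Low, enclosed and single H3K4me3 islands were thus each common among overlapping members, but how many members combined these traits was not counted.

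Exceptions ran in both directions. The highest H3K4me3 islands were at Ahdc1 (229), Eif4g3 (211), Car11 (204), Gpbp1 (202) and Kiss1r (200). At Gpbp1 H3K4me3 covered 7.49% of the member and at Eif4g3 9.25%, so there the marks met only at an edge, whereas at Car11, a carbonic anhydrase relative, H3K4me3 was 23.8 kb wide and covered 60.5%. The lowest heights, 7 to 8, were at Nodal, a ligand that patterns the early embryo, at the imprinted locus Gnas, at the calcium channel gene Cacna1e, at the carbonic anhydrase gene Car14 and near the lens crystallin gene Cryba4.

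The 161 members without H3K4me3 differed little in size from the rest. Their median height was 51 and width 11.999 kb, against 52 and 12.2 kb for the 736 members with it. No gene end lay in 32.9% of them (53) against 12.1% (89), and 28.0% against 9.92% of summits were over 10 kb from an end. Where a start was near, it had a median of 14 CpG (83 starts) against 23 (485 starts), with an observed over expected CpG ratio of 0.551 against 0.741. Transcription factor genes of other lineages were among them: the germ cell factor gene Prdm14 (height 73), Npas1 (73), Bhlhe23 (66) and Lbx2 (66), besides the adrenergic receptor gene Adra1a (80).

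The 25 tallest members had heights from 84 to 111, and 3 of the 25 were among the members of 5 kb or less described below. H3K4me3 overlapped 22 of the 25, beside 82.1% of all members and 36.1% of all islands. In 18 the summit was inside a protein-coding gene, beside 81.6% and 52.8%. In 8 it was within 1 kb of a gene end, beside 47.7% and 19.8%. The tallest lay in Hic1, which encodes a zinc finger repressor (chr11:75161801-75176999, height 111, 15.2 kb), with an H3K4me3 island of height 112 reaching over 77.6% of it. The neural homeodomain gene Nkx6-2 (chr7:139576201-139590599, height 108, 14.4 kb) had its summit 1620 bp before the start and an H3K4me3 island of height 15. The AP-2 family gene Tfap2e (height 100) held 1 H3K4me3 island of height 10, and the Ras-related gene Rasl10a (101) held 2, the taller of which extended past the member's edge. Egr3, an immediate early factor gene, had a height of 96, a width of 10.2 kb and H3K4me3 of height 85.

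Others among the 25 were of varied function. Epop, whose product associates with Polycomb complex 2, had a height of 87 and H3K4me3 of height 95. The adrenergic receptor gene Adra2a had a height of 91. The synaptic scaffold gene Shank1, the proteoglycan gene Bcan and the protocadherin gene Pcdh1 each had a height of 86. An island holding only 1 end of the NMDA receptor gene Grin1 also had a height of 86. The listed start nearest the summit of that island was that of Lrrc26. The cartilage matrix gene Comp had a height of 87 and the Wnt ligand gene Wnt10b one of 84.

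**Figure D4:**
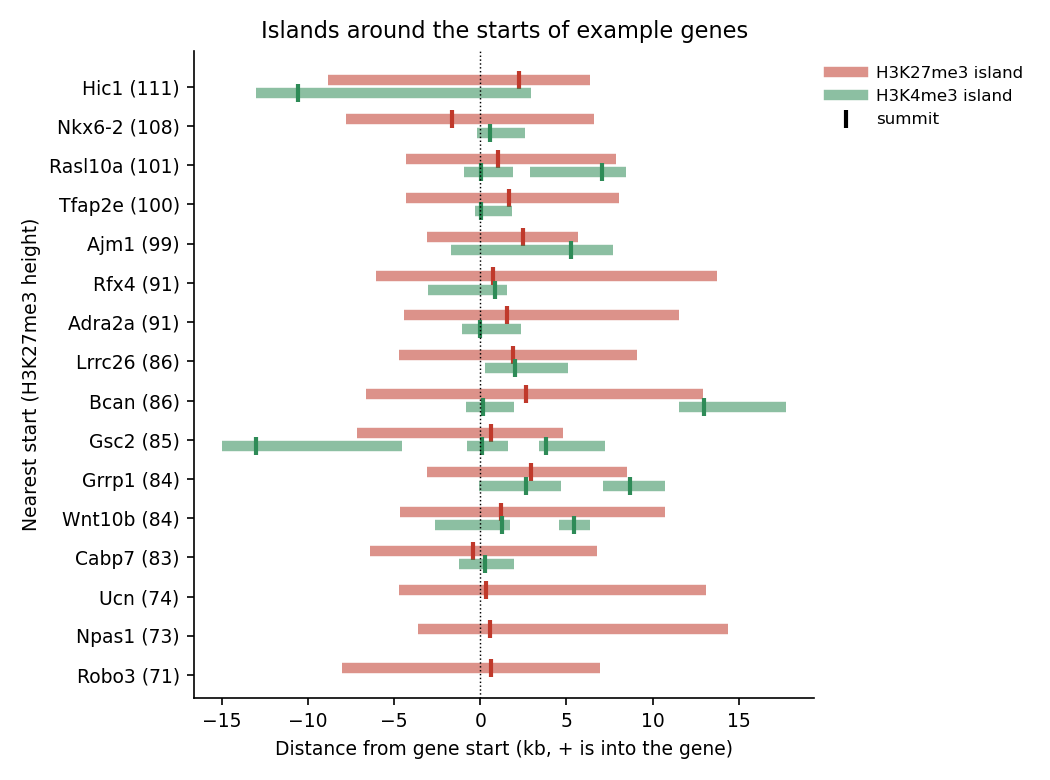
Extent of H3K27me3 (red) and overlapping H3K4me3 (green) islands around the start of 16 genes, in kb from the start and in the direction of transcription, with ticks at the summits and the H3K27me3 height in brackets. At 10 of the genes a short H3K4me3 island covers the start within a longer H3K27me3 island, Hic1, Rasl10a, Ajm1, Bcan, Gsc2 and Grrp1 have an H3K4me3 island that runs past the edge, and Ucn, Npas1 and Robo3 have none.

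The narrowest members were short islands of mixed placement. Of 15 members of 5 kb or less, 7 had the summit within 1 kb of a protein-coding gene end (46.7%) and 4 had it over 10 kb away, while 11 held no gene end inside the island and 8 overlapped H3K4me3. The tallest 3 were on chromosome 14 (chr14:19415601-19419799, height 110, 4.20 kb), with the nearest protein-coding end 117475 bp away, on chromosome 8 (chr8:15519001-15520199, height 109, 1.20 kb), with the nearest end, that of Csmd1, 372633 bp away and no H3K4me3, and on chromosome 13 (chr13:120031201-120034399, height 90, 3.20 kb), with an end of Gm21188 843 bp away. The narrowest was 0.199 kb wide with a height of 56, 18705 bp from Cspg5, and the H3K4me3 island there had the same width of 0.199 kb. What copy number or mappability adds at these places was not tested, and no input was used. Without the 15, H3K4me3 overlapped 82.5% of members and 47.7% had a summit within 1 kb of a gene end. Other summits far from gene ends belonged to islands of ordinary width: chr2:146826001-146844799 (height 87, 18.8 kb, 21520 bp from Kiz), chr13:94699001-94715599 (82, 16.6 kb, 81591 bp from Tbca) and a place within Cdh23 (80, 9.60 kb, 10240 bp from its end), all 3 with H3K4me3.

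Each protein-coding gene with an annotated end in an H3K27me3 island was counted once, under the highest island over either end. Counted so, 898 genes fell to members, in 745 islands, or 4.35% of 20665. Broad strong islands had 530 genes, 2.56%. A gene whose other end lay in a taller island was thus left out of the count of the lower one. Compact islands therefore held 62.9% of the 1428 genes of strong islands (60.3 to 65.4). Of the 898 genes, 211 (23.5%) were in at least 1 of 21 lists. H3K4me3 lay at an end of 72.7% of the 898 and 64.0% of the 530, beside 56.6% of all autosomal protein-coding genes. Either end of a gene counted, its start or its far end, and these were not told apart in the gene counts. Genes of 1 island share their call, as Col4a1 and Col4a2 do. Intervals over genes treat each gene as separate and may therefore be too narrow.

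Transcription factor genes were mostly in the broad set. Across 6 lists, 54 of 365 genes (14.8%, 11.3 to 18.9) had an end in a compact strong island, beside 4.35% of all genes. Broad strong islands held an end of 207 (56.7%, beside 2.56% of all genes), so the compact share was 20.7% (15.9 to 26.1). All 39 Hox genes were in broad islands. Of 116 homeodomain genes of organ patterning, 11 were in compact islands and 79 in broad ones, those in compact islands including Nkx6-2, Hhex, a factor of liver and blood development (height 75), and Nkx2-9 (71). Compact and broad counts were 4 and 18 of 29 for forkhead genes, and 5 and 28 of 45 for T-box, Gata, Pax, Sox and Zic genes. Basic helix-loop-helix genes were equally divided, with 18 in each of 60, and the compact ones included the Notch effector gene Hes5 (80) and the imprinted placental gene Ascl2 (65). Zinc finger and nuclear receptor genes had 16 and 25 of 76, with Hic1, Tfap2e, Egr3 and Prdm14 on the compact side.

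Signalling genes were found in both sets. Across 4 lists, 39 of 215 genes (18.1%) were in compact and 27 in broad strong islands, a compact share of 59.1% (46.3 to 71.0) beside 62.9% for all genes. Wnt pathway genes had 13 and 8 of 53, the compact ones including the ligand genes Wnt10b (84), Wnt4 (57), Wnt2b (54) and Wnt16 (40), the antagonist gene Sfrp5 (62), the enhancer of Wnt signals Rspo1 (52) and the receptor gene Fzd9 (47). BMP, TGF-beta and activin genes had 9 and 2 of 44, with the activin subunit gene Inhbb (69), Bmp8b (68), Nodal (62) and the antagonist gene Chrdl2 (57). FGF, hedgehog and Notch genes had 11 and 4 of 50, with the ligand genes Fgf4 (78), Dll4 (64), Fgf15 (59), Fgf20 (49), Fgf17 (48) and Jag2 (44). Axon guidance and neurotrophic genes leaned the other way, with 6 and 13 of 68. H3K4me3 lay at an end of 34 of the 39 signalling genes (87.2%) and of 35 of the 54 transcription factor genes (64.8%). The share was 68.1% for the membrane protein genes described next (64 of 94) and 72.7% for all 898 genes of members. The end with H3K4me3 could be the one outside the H3K27me3 island.

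Membrane protein genes had the highest compact share of these 3 groups, 79.7% (71.3 to 86.5), with 94 of 693 genes in compact and 24 in broad strong islands. Potassium, sodium and calcium channels had 36 and 5 of 135, including Kcnh3 (82), Kcng3 (72), Kcnk4 (72) and Cacna1i (66). Neurotransmitter receptors had 22 and 8 of 99, including Adra2a (91), Grin1 (86, in the island nearest the start of Lrrc26), Adra1a (80) and Adra2b (76). Cadherins and protocadherins had 10 and 1 of 99, and solute carriers, which move small molecules across membranes, 26 and 10 of 360. For channels 26.7% of the list was in compact strong islands, for receptors 22.2%, for cadherins 10.1% and for solute carriers 7.22%, beside 4.35% of all genes.

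These shares moved with height. Among genes in strong islands of heights 40 to 59 the compact share was 75% for the transcription factor lists (24 of 32, 56.6 to 88.5), 70.6% for signalling (24 of 34, 52.5 to 84.9), 91.7% for membrane proteins (66 of 72, 82.7 to 96.9) and 85.3% for all genes (599 of 702). At 60 or more it was 13.1% (30 of 229, 9.02 to 18.2), 46.9% (15 of 32, 29.1 to 65.3), 60.9% (28 of 46, 45.4 to 74.9) and 41.2% (299 of 726). The transcription factor lists were below all genes in both ranges, but only at 60 or more did their interval leave out the value of all genes, and 229 of their 261 genes were in that range. The interval of the signalling lists left out the value of all genes at 40 to 59, where it was lower, and that of the membrane protein lists at 60 or more, where it was higher.

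**Figure D5:**
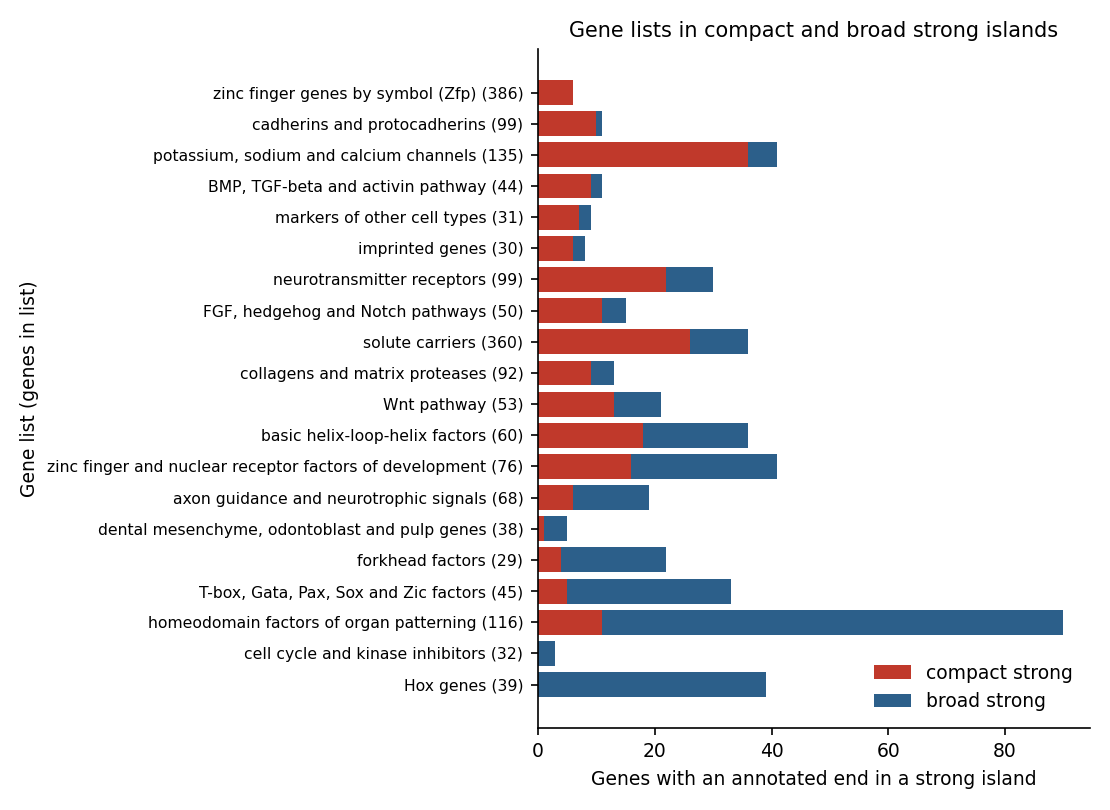
Number of genes of 20 lists with an annotated end in a compact strong (red) or broad strong (blue) H3K27me3 island, with the size of the list in brackets, ordered by the compact share. Each gene is counted once, under the highest island over either end. Channels (36 and 5) and receptors (22 and 8) are mostly red, Hox genes (0 and 39) and homeodomain factors (11 and 79) mostly blue.

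Other lists had few genes in members, and their shares stand beside 4.35% of all genes. Dental mesenchyme, odontoblast and pulp genes had 1 compact gene of 38 (2.63%), the hedgehog effector gene Gli1, and 4 in broad islands. The island at Gli1 was 12.2 kb wide, with a height of 48 and H3K4me3 of height 24. It held only the Gli1 end of lower coordinate, and whether that end is the start was not examined. Cell cycle genes and kinase inhibitors had 0 of 32. Genes named Zfp, most of them zinc finger genes, had 6 of 386, or 1.55%. Imprinted genes had 6 of 30 (20%), among them Igf2 (height 74), Phlda2 (48) and Gnas (50). Markers of other cell types had 7 of 31 (22.6%), with the neuronal gene Elavl3 (64) and the cartilage gene Acan (40) besides Epcam (45), Cdh1 (47) and Kdr. Collagens and matrix proteases had 9 of 92 (9.78%), including Col4a1 with Col4a2 (45), Col18a1 (42) and Col14a1 (42).

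MicroRNA hairpins lay wholly inside 16 members (1.78%), which held 20 hairpins, and inside 18 broad strong islands (4.14%). Broad strong islands were also wider, with a median of 29.8 kb against 12.2 kb. The share over all H3K27me3 islands was not counted, so these shares have no background beside them. The tallest member, at Hic1, held the hairpins of miR-212 and miR-132, whose 3p forms share the seed AACAGUC. An island at Cdc20b (height 59, 19.4 kb) held miR-449a and miR-449c, known from multiciliated cells, whose 5p forms share the seed GGCAGUG. The hairpin of miR-449c was 217 bp from the H3K27me3 summit and that of miR-449a 1768 bp. The hairpin of miR-219a-2, a miRNA of oligodendrocytes, was 418 bp from the summit of an island near Cercam (height 55, 9.60 kb) without H3K4me3. Their mature forms follow, from RefSeq on GRCm38.p6, with the seed (bases 2 to 8) in capitals, since they show which of these hairpins share a seed.
miR-212-3p: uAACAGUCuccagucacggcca
miR-132-3p: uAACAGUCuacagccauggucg
miR-449a-5p: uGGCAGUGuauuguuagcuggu
miR-449c-5p: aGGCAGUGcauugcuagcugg
miR-219a-5p: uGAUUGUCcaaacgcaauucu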

How the data were processed

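The data are islands of H3K4me3 and H3K27me3 from EdU+ incisor pulp cells, 1 library for each mark. Per the submitters' processing notes, BWA aligned the reads, SICER was used and the build was mm10; versions and settings were not stated there. Each mark has, per the file headers, a track of islands and a track of summits, and the value of a summit is a score deposited by the authors as its height. Rows of both tracks were paired by order. The scaling of heights between libraries is not given, so heights rank islands only within a mark. The files hold no read counts, so the depth is unknown. All widths (100%) were 1 bp short of a multiple of 200 bp.

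Overlap meant at least 1 bp. Gene ends came from RefSeq genes of GRCm38.p6, the assembly called mm10 (20665 autosomal protein-coding genes), and starts from its promoter table (16457 of these genes). For the 21 lists, 711 of 724 listed symbols were found on autosomes. With 1 library for each mark there is no replicate and no test; shares have exact binomial (Clopper-Pearson) 95% intervals, which cover counting only, and medians have interquartile ranges. Scripts (Python 3.11.15, pandas 2.3.3, scipy 1.17.1, numpy 2.4.6) were tested on simulated islands. The islands and lists were chosen with earlier results of these data known. Genes named are those at the 25 tallest, 5 narrowest and 5 widest members, the 5 with highest and with lowest H3K4me3, the 5 tallest far from gene ends, those at the limits, and up to 4 of a list by height; Lmo2, Gli1, Igf2 and some others were added after their values were seen. The receptor list was corrected after its first counts were seen, to leave out 2 protease genes with a similar symbol. Per-sample value columns left out numbered 0. Signal tracks were not used here, and a few genes the rule selects are not reported here.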

Additional observations from a re-analysis of the deposited data

How the results depend on the processing

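No paired analysis was possible because each mark has 1 library. All results are shares, counts or medians of called islands without a test, and most alternatives redefine the sets. The number of members was 897, and became 259 with a width limit of 10 kb, 1417 with a height limit of 30 and 260 with a height limit of 60. H3K4me3 overlapped 78.8%, 77.6% and 88.1% of members under these limits, 10.8% when H3K4me3 islands were restricted to the higher 50%, and 78.7% within 1 kb of the summit. For broad strong islands the share was 72.7% at a height limit of 30, 87.0% at 60, 89.6% without islands that had another H3K27me3 island within 5 kb, 10.6% with the higher 50% of H3K4me3 islands, 63.0% for all islands over 20 kb, 63.7% within 1 kb of the summit and 66.4% at heights of 40 to 59 (an alternative added after seeing the data, as is the distance of 1 kb to the summit). The share of members with a summit at a gene end was 51.4% with a width limit of 10 kb, 20.4% with a window of 500 bp, 74.4% with 2.5 kb and 53.8% with all annotated genes; for broad strong islands it was 40.1%, 13.8%, 57.01% and 38.4%, and 24.4% for all islands over 20 kb and 23.4% at heights of 40 to 59. In each of these settings that redefine both sets, the share at a gene end was higher in compact than in broad islands. The share overlapping H3K4me3 anywhere was higher in broad than in compact islands with a width limit of 10 kb (82.4% against 78.8%) and without islands near another one (89.6% against 83.6%). The median distance to a gene end was 1194.5 bp at a height limit of 60 and 901 bp with all annotated genes.

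Summit genes were the nearest protein-coding genes with an end within 1 kb of a summit, 427 for compact and 135 for broad strong islands. Of 126 list shares at summits under alternatives, 14 left their interval. At a height limit of 60 the shares of compact summit genes were 3.45% for homeodomain, 6.03% for basic helix-loop-helix and 0.862% for solute carrier genes. At the limit of 40 they were 1.64%, 3.51% and 3.75%, beside 0.561%, 0.290% and 1.74% of all protein-coding genes. Forkhead and collagen genes went from 0.937% each, and T-box group and Zfp genes from 0.234% each, to 0%. In that order, these lists made up 0.140%, 0.445%, 0.218% and 1.87% of all genes. At a width limit of 10 kb channels went from 3.98% to 2.27%, beside 0.653% of all genes. The T-box group, axon guidance, imprinted and cadherin genes went from 0.234%, 0.937%, 0.937% and 0.703% to 0%. These lists made up 0.218%, 0.329%, 0.145% and 0.479% of all genes. In the islands then called broad, homeodomain genes were 6.76% and forkhead genes 2.80%, against 17.8% and 7.41% at the limit of 20 kb. The compact share of strong-island genes moved at a height limit of 60 to 41.2% for all genes, 13.1% for transcription factors and 60.9% for membrane proteins, and at heights of 40 to 59 to 85.3%, 75% and 91.7% (both settings added after seeing the data). The unknown depth limits what the absence of an island means at any single gene.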
